A study of Nicotiana tabacum with 8 samples.

Results

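The 4 control libraries of a tobacco cold experiment, out of 8 libraries in all, are described here on their own. They came from leaves of *Nicotiana tabacum* cultivars CB-1 (CC1 and CC2) and K326 (KC1 and KC2) grown at 28 °C by day and 24 °C by night, with 2 libraries in each group. The remaining libraries, CB-1 cold (CT1 and CT2) and K326 cold (KT1 and KT2), came from plants of the same cultivars held at 4 °C for 1 day. Each sample pooled the uppermost leaves of 6 plants. Nothing in the labels says whether the 2 libraries of a group came from separate batches of plants, so p-values measure only the spread between these samples, which may be technical. Of 135146 unigenes (transcripts assembled without a genome), 24193 reached a value of 1 in at least 2 of the 4 control libraries and are described below.

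The 4 libraries were arranged in crossed pairs, CC1 with KC2 against CC2 with KC1. This arrangement was selected on the measured values, because these pairs correlated best, and it cuts across the cultivar labels. The difference between the crossed pairs is therefore given as a description without a test, beside the split by label (CC against KC), which was tested and which asks how leaves of the cultivars differ before any cold. The cold libraries did not enter this choice. Whether the control libraries carry exchanged cultivar names was not tested, because the table holds no sequence from which a cultivar could be read, so "CC" and "KC" below mean libraries with those labels.

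Related cultivars can differ in genes that are missing or silent in one of them, or that have diverged so far that the transcript is assembled as another unigene. Leaves of one cultivar can also differ in genes that follow the state of the plant. Known among these are the heat shock proteins, chaperones that keep other proteins folded, the WRKY factors that respond to wounding and pathogens, and the DREB factors that switch on cold-protective genes. Tobacco is an allotetraploid with a pair of parental genomes, so near-identical gene copies can share reads, and the value of any single member of a family is uncertain to that extent.

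Values are log2(RSEM value + 1), as deposited, and differences are in log2 units of this scale, which understates changes of low unigenes. A value of 0 is called "listed at 0", because the table does not tell an absent transcript from a failed estimate. Read counts per unigene were not used here, so the number of reads behind each value is unknown, and the read totals of the libraries, which the paper gives and which differ between them, were not used to scale the values. In the control libraries between 41878 (CC2) and 48065 (KC1) unigenes lay above 0, and between 688 (CC1) and 924 (CC2) of the 24193 described were listed at 0. No unigene with a name was a photosynthesis gene of the kind that marks leaves, so the tissue on the labels was not checked against markers.

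Across the 24193 unigenes, which are not independent replicates and share a library, Pearson's correlation was 0.953 between CC1 and KC2 and 0.939 between CC2 and KC1. It was 0.915 between CC1 and CC2 and 0.891 between KC1 and KC2, which share a label. The other two pairs lay at 0.900 (CC1 with KC1) and 0.910 (CC2 with KC2). Thus, the lower crossed pair stood 0.939 against 0.915 for the best pair outside the arrangement. A difference over 1 log2 unit separated 1735 unigenes (7.17%) between CC1 and KC2 and 2386 (9.86%) between CC2 and KC1, but 2840 (11.7%) between CC1 and CC2 and 3419 (14.1%) between KC1 and KC2. The median absolute difference did not set both crossed pairs apart. It was 0.181 between CC1 and KC2 but 0.27 between CC2 and KC1. The latter lay above CC1 with CC2 (0.251) and CC1 with KC1 (0.263), and below KC1 with KC2 (0.273) and CC2 with KC2 (0.283). The first principal component held 55.7% of the variance, with scores of 43.2 for CC1 and 52.8 for KC2 against -37.3 for CC2 and -58.7 for KC1. The second held 25.8%, and on it CC2 (-51.5) and KC1 (40.8) lay apart from each other, while CC1 (9.18) and KC2 (1.51) lay close.

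**Figure D1:**
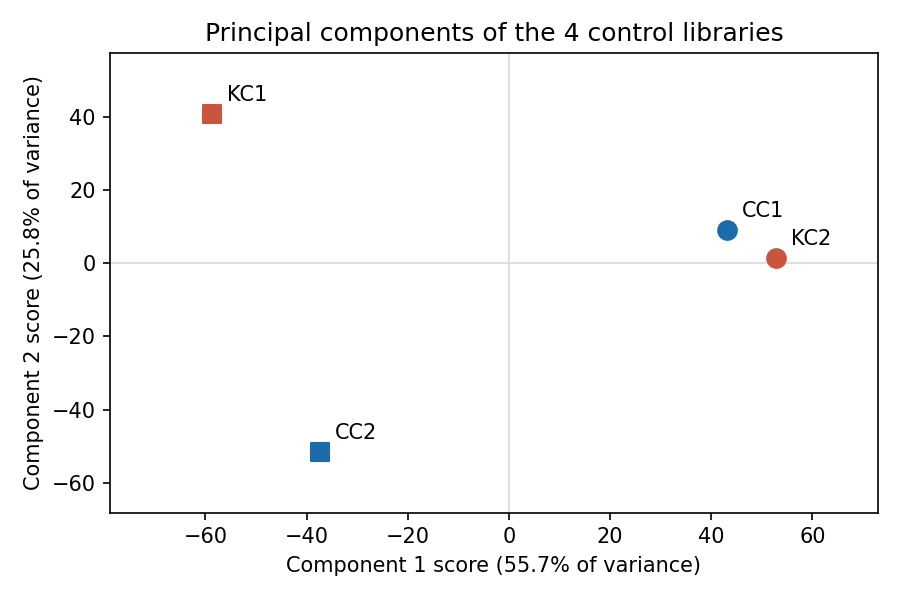
Scores of the 4 control libraries on the first and second principal components of log2(RSEM value + 1) over the 24193 unigenes, with the percent of variance on each axis. Blue is CC, red is KC, circles are CC1 and KC2 and squares are CC2 and KC1: component 1 (55.7%) placed CC1 and KC2 at 43.2 and 52.8 and CC2 and KC1 at -37.3 and -58.7.

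The filter divided many unigenes of near-equal level. At the edge, 1025 unigenes passed with a second-highest linear value from 1 up to 1.1, the nearest at 1.0, and 1085 were left out with one from 0.9 up to 1, the nearest at 0.999.

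Between the crossed pairs, 949 unigenes were higher in CC1 and KC2 by more than 1 log2 unit of the pair means with no overlap of the pairs, which is 3.92% of those described, and 906 (3.74%) were higher in CC2 and KC1. With the same 2 against 2 count by label, 262 unigenes (1.08%) were higher in CC and 446 (1.84%) in KC. At more than 2 log2 units the crossed counts were 206 and 222, against 7 and 26 by label. At more than 3 they were 60 and 73, and at more than 4 they were 27 and 23, with 0 by label at both sizes. The median absolute difference was 0.198 for the crossed pairs and 0.169 by label, so the arrangements differed mainly in the large differences. Among the 949 and 906 unigenes, the median absolute difference by label was 0.238 and 0.256, and it passed 1 in 31 and 30 of them.

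**Figure D2:**
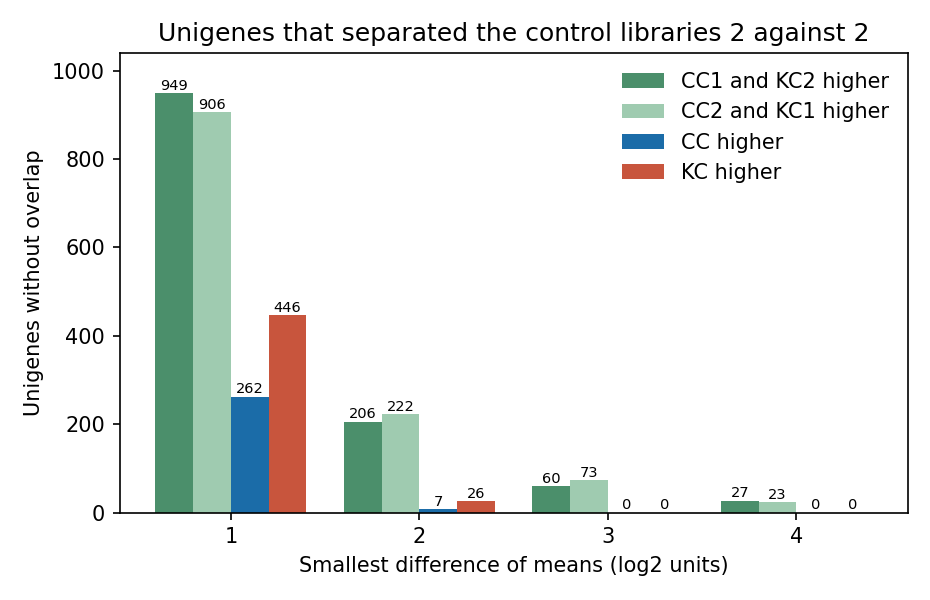
Number of unigenes (of 24193) in which one pair of control libraries lay wholly above the other, by the smallest difference of means in log2 units. Dark and light green are the crossed pairs, blue and red the split by label: the crossed counts of 949 and 906 past 1 log2 unit fell to 27 and 23 past 4, while the counts by label reached 0 past 3.

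Shares by level depend on the filter, because a unigene with a mean log2 value under 1 passed it only through the libraries where it was highest and had at least 1 other library lower. Of 2262 unigenes with a mean log2 value under 1 over the 4 control libraries, 26.2% were past 1 log2 unit between the crossed pairs without overlap, and 11.4% by label. Of 8989 with a mean from 1 up to 2 the shares were 8.67% and 3.74%. Of 8642 with a mean from 2 up to 4 they were 4.63% and 1.19%, and of 4300 with a mean of 4 or more they were 1.95% and 0.256%. At each of these levels the crossed share was higher than the share by label. The choice of the pairs that correlated best favours this, so it is a description and not support for the pairing.

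The test by label called no unigene. With limma over the 24193 unigenes, 0 (0%) reached an adjusted p-value under 0.05 with a log2 difference over 1, and 1064 had an unadjusted p-value under 0.05. By its construction this test counts the difference between the crossed pairs as spread within the groups. A test of each unigene alone, without moderation of the variance, called 1 unigene, c28856_g1, which was listed at 0 in CC1 and CC2 and stood at 2.671 in KC1 and 2.662 in KC2. With 2 libraries against 2, the smallest p-value that an exact two-sided permutation test allows for a unigene is 0.333.

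Many unigenes separated the crossed pairs as on against off, with a value of at least 1 in both libraries of one pair and 0 in both of the other. Totally, 363 unigenes were on in CC1 and KC2 only and 346 in CC2 and KC1 only. By label 58 were on in CC only and 76 in KC only. In whole leaves, fewer cells of a type and less RNA per cell cannot be told apart. The level where they were on was low, with a median log2 value of 1.81 in the first set and 1.95 in the second, and the highest means were 6.01 and 6.37. Only 12 of the 363 and 8 of the 346 had a name.

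The cold libraries gave a measure of these unigenes that the pairing did not use. Of the 363 on in CC1 and KC2 only, 160 were on in CT1 and 182 in CT2, but 34 in KT1 and 42 in KT2. Of the 346 on in CC2 and KC1 only, 24 were on in CT1 and 18 in CT2, but 161 in KT1 and 166 in KT2. The first set thus followed the libraries labelled CB-1 in the cold and the second set those labelled K326. In all, 94 of the first set were on in both CT libraries and listed at 0 in both KT libraries, and 0 showed the reverse. For the second set 110 were on in both KT libraries and listed at 0 in both CT libraries, and 0 the reverse. Among all 24193 unigenes the same patterns held for 134 (on in CT) and 162 (on in KT), and the share that was on was between 63.3% (KT1) and 67.4% (KT2). A further 73 and 79 members were listed at 0 in all cold libraries, and 21 and 9 were on in all of them.

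**Figure D3:**
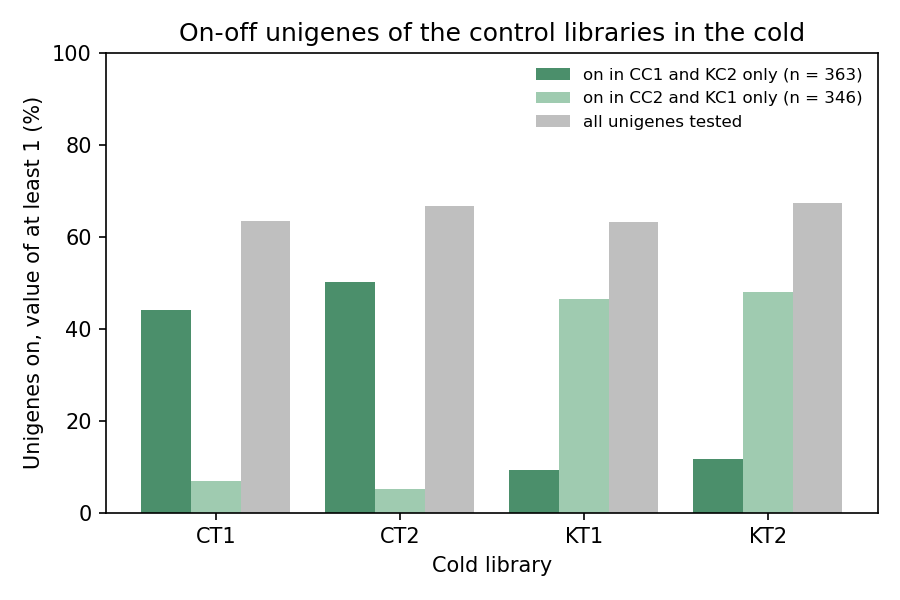
Percent of unigenes that were on (value of at least 1) in each cold library, for 363 unigenes on in CC1 and KC2 only (dark green), the 346 on in CC2 and KC1 only (light green) and all 24193 unigenes tested (grey). The first set was on more often in CT1 and CT2 (160 and 182 unigenes) than in KT1 and KT2 (34 and 42), and the second set the other way.

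The same held for the wider sets past 1 log2 unit. Of the 949 unigenes higher in CC1 and KC2, 353 (37.2%) had both CT libraries above both KT libraries, against 16.8% of all unigenes, and 47 (4.95%) had the reverse, against 18.1%. Of the 906 higher in CC2 and KC1, 38 (4.19%) had CT above KT and 410 (45.3%) had KT above CT. The median of CT minus KT was 0.307 in the first set, -0.473 in the second and 0.0 over all unigenes. The sets by label had smaller shares than all unigenes on either side. Of the 262 higher in CC, 30 (11.5%) had CT above KT and 26 (9.92%) KT above CT. Of the 446 higher in KC, 66 (14.8%) had CT above KT and 44 (9.87%) KT above CT. The second set thus leaned to CT, the side opposite to its label.

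The cold difference grew with the crossed difference. For 27 unigenes at least 4 log2 units higher in CC1 and KC2, the median of CT minus KT was 3.362, and 85.2% of them had CT wholly above KT. For 23 unigenes more than 4 units higher in CC2 and KC1 the median was -3.752, and all of them (100%) had KT wholly above CT. For 764 unigenes between 1 and 2 units higher in CC2 and KC1 it was -0.269, and for 798 between 1 and 2 units higher in CC1 and KC2 it was 0.192. Across the 24193 unigenes, which share libraries and are not replicates, the crossed difference correlated with CT minus KT at r = 0.433 and the difference by label at r = 0.00478. The deviations of single control libraries from the mean of all 4 correlated with CT minus KT at 0.311 for CC1 and 0.355 for KC2, and at -0.297 for CC2 and -0.332 for KC1.

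**Figure D4:**
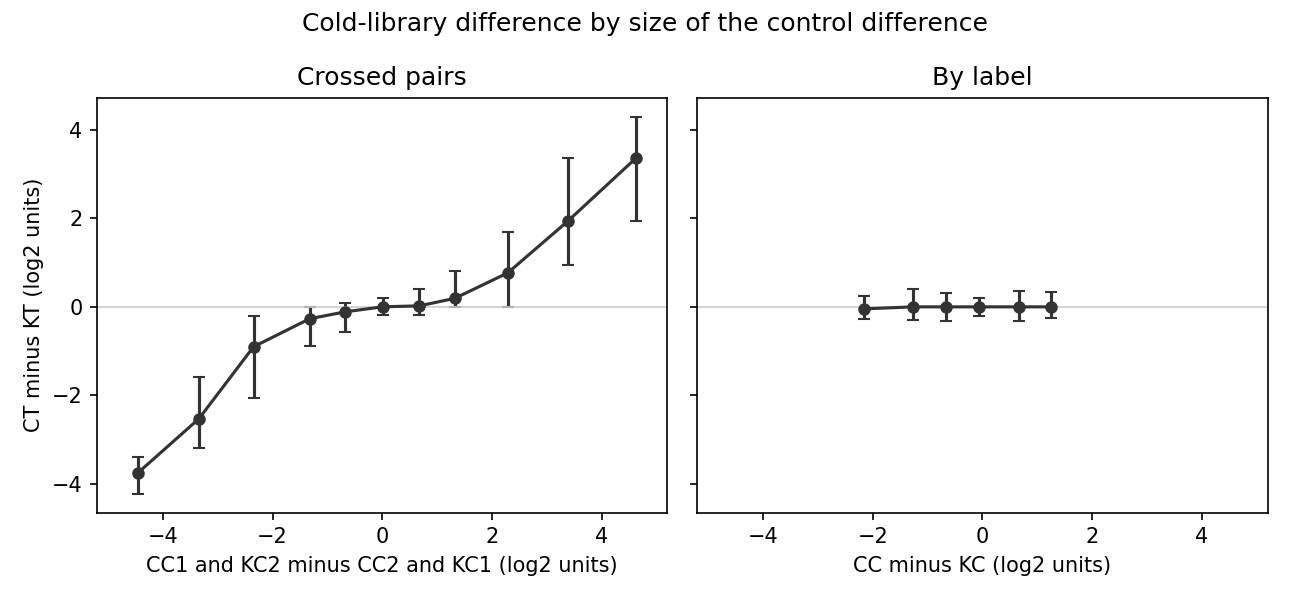
Median of CT minus KT (points, with bars from the first to the third quartile over unigenes) by the size of the difference among the control libraries, both in log2 units, for the crossed pairs (left) and by label (right), in bins of at least 20 unigenes. The medians ran from -3.752 to 3.362 across the crossed difference and stayed between -0.046 and 0.0 across the difference by label.

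A test of CT against KT gave few calls at this sample size. In the limma fit of the 4 group means over 31884 unigenes, 50 (0.157%) were called higher in CT and 79 (0.248%) higher in KT, and 0 of the 949 and 0 of the 906 members were among them. That fit takes its spread from the control groups too, where the crossed difference is counted. At an unadjusted p-value under 0.05, 82 of the 949 were higher in CT and 2 in KT, and 5 and 89 of the 906, beside 909 (3.76%) and 1239 (5.12%) of all 24193. In a fit of the cold libraries alone, 29 of the 949 were called higher in CT and 0 in KT, and 0 and 40 of the 906, beside 32 (0.137%) and 52 (0.223%) of all 23282 unigenes in it. This fit held 483 and 491 of the members, those that reached a value of 1 in at least 2 cold libraries, so a member on in 1 cultivar only had to differ to enter it. The calls among members are therefore given as counts and not as support. Without CT1, KT1 or KT2 the fit of 4 group means called 0 unigenes, and without CT2 it called 719.

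Names came from the study's own supplement, where the listed unigenes are those whose cold response differed most between the cultivars. The 241 of them that were described here had a median absolute difference of cold responses of 1.97 log2 units, against 0.304 over all 24193. They were thus selected on these same libraries, and where a control difference is small by label, such a selection favours a large difference between CT and KT. For the named unigenes the cold values are a description only. In total, 268 named unigenes were described, of which 43 were higher in CC1 and KC2 and 39 in CC2 and KC1 past 1 log2 unit without overlap.

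Genes of protein sorting and of the cell wall were among the named unigenes higher in CC1 and KC2. The largest gap, from the lower library of the higher pair to the higher library of the other pair, belonged to c89805_g1, a Kirola-like protein of the family of major latex proteins. It had values of 6.72 in CC1 and 6.83 in KC2, against 0.00 in CC2 and 0.57 in KC1. In the cold it had 4.10 in CT1 and 3.51 in CT2 and was listed at 0 in both KT libraries. Both members of a component annotated as Sec61 subunit alpha, the channel through which new proteins enter the endoplasmic reticulum, had the same pattern. The first, c72544_g1, had 4.78 in CC1 and 4.75 in KC2, with 0 in the other pair. The second, c72544_g2, had 4.88 and 5.13 in these libraries, against 0.32 in CC2 and 0.00 in KC1. The cellulose synthase subunit CESA1 (c66835_g1), which makes cellulose of the primary wall in *Arabidopsis*, had 5.12 in CC1, 4.50 in KC2, 1.44 in CC2 and 0.00 in KC1. A glycine-rich protein (c26589_g1) was the only one of the 10 named unigenes of this direction that was well above 0 in all 4 libraries, with 7.75 in CC1, 7.83 in KC2, 3.53 in CC2 and 3.24 in KC1. In the cold its values were 7.80 in CT1, 7.62 in CT2, 3.70 in KT1 and 3.50 in KT2, close to those of the control pairs.

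NFYB7 (c70415_g4), a subunit of the NF-Y complex that binds CCAAT boxes in promoters, is one of the unigenes the study also measured by qPCR. Its control values were 4.46 in CC1 and 4.50 in KC2, and 0 in the other pair. After cold treatment CT1 stood at 4.98, CT2 at 5.08 and both KT libraries at 0. The crossed difference was 4.48 and the difference by label was -0.02 (standard error 2.31, adjusted p = 1.0 with limma). The values thus lay at the same level or at 0 in every library, with the control libraries of each label divided. The same on or off pattern was seen in SKIP23 (c30763_g1), an F-box protein of the ubiquitin ligases that mark proteins for breakdown, at 3.05 in CC1 and 3.11 in KC2. P1 (c100467_g1), an alkenal double bond reductase that detoxifies reactive aldehydes, had 4.09 in CC1 and 3.67 in KC2. An AtMg00810-like unigene (c14276_g1) had 4.36 and 4.31, and a zinc finger protein homolog (c5237_g1) had 3.65 and 3.85. All of these were listed at 0 in CC2 and KC1.

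The qPCR primers of NFYB7 and of WRKY33 (described below) are shown, since these had the largest crossed difference of each direction among the qPCR unigenes without overlap, and since they mark the only stretches of the unigenes whose letters were used here. They are 20 bases each, 5′ to 3′, with no part in capitals.
NFYB7 forward: gcccttcaccattttccgtt
NFYB7 reverse: ggcttctctgattcgagcac
WRKY33 forward: atccaaagcctcagtccact
WRKY33 reverse: caatgtcctcgtcgccaaaa

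Disease resistance homologs and regulators stood among the named unigenes higher in CC2 and KC1. NLP1 (c74453_g1), named after the NIN-like factors that respond to nitrate in *Arabidopsis*, had 5.33 in CC2 and 5.44 in KC1 and was listed at 0 in CC1 and KC2. In the cold it was listed at 0 in CT1 and CT2 and had only 1.68 in KT1 and 1.62 in KT2. The late blight resistance homolog R1B-16 (c60206_g1) had 4.89 in CC2 and 4.85 in KC1, against 0.73 in CC1 and 0.85 in KC2. A second homolog, R1A-6 (c87077_g3), had 3.68 and 3.65 and was listed at 0 in CC1 and KC2. Proteins of this kind are receptors for pathogen effectors inside the cell. SKP1B (c37889_g1), an adaptor of ubiquitin ligases, had 4.01 in CC2, 3.85 in KC1, 0.86 in CC1 and 0.00 in KC2.

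Some unigenes of this direction had larger values in the cold KT libraries than in the warm pair. The calcium-binding allergen Ole e 8 homolog (c67871_g1) had 2.77 in CC2 and 4.26 in KC1, and 8.81 in KT1 and 8.38 in KT2, and was listed at 0 in all other libraries. In the limma fit of 4 groups its CT minus KT was -8.59 (standard error 1.47). No p-value is given, because this unigene was named for its cold response in these same libraries. ATHB-7 (c72344_g1), a homeodomain factor induced by water deficit and abscisic acid in *Arabidopsis*, had 2.54 in CC2 and 3.94 in KC1, then 5.43 in KT1 and 6.10 in KT2. TPP4 (c67710_g1), a phosphatase that makes trehalose, had 2.23 in CC2 and 2.15 in KC1, then 4.71 and 4.45 in the KT libraries. The retrotransposon TNT 1-94 polyprotein (c63631_g1) had 2.60 and 2.75 in the warm pair and 3.31 and 3.52 in the KT libraries. A WD repeat protein (c85003_g1) had 2.98 in CC2 and 3.52 in KC1 over 0.94 in CC1 and 0.95 in KC2, then 4.44 in KT1 and 4.78 in KT2. A second AtMg00810-like unigene (c50710_g2) did not share this, with 4.33 and 4.51 in the warm pair and 3.45 and 3.92 in the KT libraries.

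The unigenes with the largest gaps regardless of a name included 4 without one. In CC1 and KC2 these were c57042_g1, with 5.98 and 6.04, and c102159_g1, with 5.72 and 5.79, with 0 for both in the other pair. In the cold they parted. The first had 5.28 in CT1 and 5.43 in CT2 and was listed at 0 in both KT libraries, while the second was on in all 4, with 5.39 and 5.21 in CT and 4.12 and 5.11 in KT. In CC2 and KC1 these were c76309_g2, with 6.21 and 6.54, and c78528_g3, with 5.44 and 6.28. Both were listed at 0 in CC1, KC2, CT1 and CT2 and lay between 5.40 and 6.31 in the KT libraries. Of the 12 unigenes singled out in each direction, 12 and 12 had cold libraries that did not overlap, on the side that the crossed pairs had. Over all unigenes, 16.8% had both CT above both KT and 18.1% the reverse. In each direction 10 of the 12 had a name and were thus selected on the cold response. That selection favours a large difference between CT and KT, so these counts are a description and not support.

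**Figure D5:**
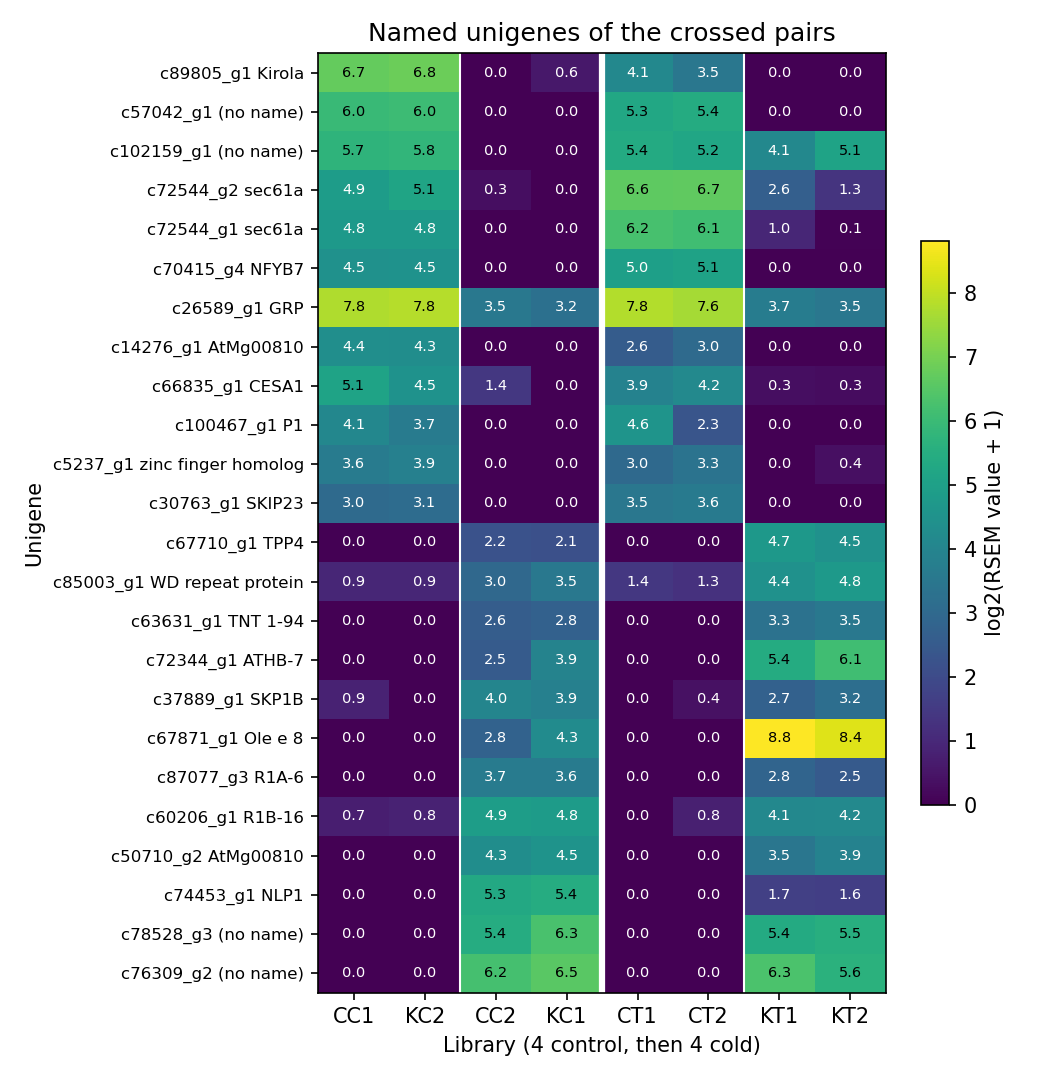
Values of log2(RSEM value + 1) in all 8 libraries for the 12 named unigenes of each direction, control libraries on the left in crossed order and cold libraries on the right. Unigenes high in CC1 and KC2 (top) were high in CT1 and CT2, and those high in CC2 and KC1 (bottom) were higher in KT1 and KT2 than in CT1 and CT2. The unigene c102159_g1 was high in every cold library, and NLP1 reached only 1.68 and 1.62 in the KT libraries.

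A partner of the opposite pattern in the same assembled component would be met where alleles were assembled as separate unigenes. Of the 363 unigenes on in CC1 and KC2 only, 126 belonged to a component with another unigene that passed the filter and 6 had a partner that was on in CC2 and KC1 only. Of the 346 in the other direction, 133 belonged to such a component and 6 had a partner. They lay in 5 components. In c87077, which holds R1A-6, the members had a median absolute difference of 1.76 while the sum of the whole component differed by -1.1. In c87039 the members differed by 1.44 and the sum by 0.162. In c83391, c40675 and c73905 the members differed by 3.18, 2.05 and 1.57, and the sums by -1.85, -0.896 and -0.339. These measures are unlike, because sums were averaged on the linear scale before the log2 and members on the log2 scale. A partner of the same direction in the same component was found for 43 and 59 unigenes.

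Heat shock proteins and chaperones were the list with the largest share of members on one side of the crossed pairs. Of 34 named members 29 were described, and 20 of them were higher in CC2 and KC1 without overlap at any size, against a background of 19.8% of all unigenes, while 0 were higher in CC1 and KC2 (background 21.4%). The median crossed difference was -0.401, beside 0.013 over all unigenes and -0.139 over all named ones, and 4 members were past 1 log2 unit. This median was not particular to the list. Shorter lists had lower ones, such as transposon proteins (-0.964), ethylene genes (-0.847), disease resistance proteins (-0.772) and mitochondrial proteins (-0.762). Only the qPCR list had a median above 0 (0.136). Among all 268 named unigenes described, 82 were higher in CC2 and KC1 and 67 in CC1 and KC2 without overlap. Without KC1 the median of the list was -0.255, with 23 members higher in CC2 and 1 in CC1 and KC2. The summed linear value of the list was 1810.0 in CC2 and 2030.0 in KC1, over 1430.0 in CC1 and 1540.0 in KC2. In the cold it was 152.0 in CT1, 381.0 in CT2, 1950.0 in KT1 and 1310.0 in KT2. The members had names because their cold response differed between the cultivars, so the cold sums are a description only. The crossed difference correlated with CT minus KT over all unigenes (r = 0.433). The lean of the list between the crossed pairs is therefore not independent of that selection. ClpB1 (CLPB1, c73051_g2), which pulls apart protein aggregates, had 5.0 in CC2 and 5.07 in KC1 against 3.78 in both CC1 and KC2. A class IV small heat shock protein (HSP22.0, c94255_g1) had 5.55 and 5.25 against 3.92 and 4.04. A DnaJ homolog (DNAJB3, c74869_g1), a helper of HSP70, had 4.42 and 4.61 against 2.89 and 3.55. The small heat shock protein of the chloroplast (HSP22, c35263_g1) had 1.66 in CC2 and 1.22 in KC1 against 0.60 and 0.62, and 3.81 in KT1 and 3.65 in KT2. Its CT minus KT was -3.32 (standard error 0.386 with limma), given without a p-value because it was named for its cold response in these same libraries. By label, 2 of the 29 were past 1 log2 unit in CC and 0 in KC, beside 1.08% and 1.84% over all unigenes.

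WRKY33 and WRKY40, factors of the response to pathogens and wounding in *Arabidopsis*, were also higher in CC2 and KC1. WRKY33 (c78380_g1) had 1.25 in CC2 and 2.63 in KC1 against 0.21 in CC1 and 0.00 in KC2. A second WRKY33 unigene (c78380_g2) had 1.62 and 2.42 against 0.57 and 0.00, and WRKY40 (c67824_g2) had 2.74 and 3.27 against 1.18 and 0.66. These were on in every cold library, as 21 and 9 of the on or off unigenes were. WRKY33 (c78380_g1) had values between 6.28 (CT1) and 7.62 (KT1) there. They were the 3 past 1 log2 unit without overlap of 11 described among 30 listed transcription factors, with 0 in the other direction. Over all described unigenes the shares were 3.74% in this direction and 3.92% in the other, and 39 and 43 among the 268 with a name. RAV1 (c75413_g1), another factor among the qPCR unigenes, had 4.66 in CC2 and 5.07 in KC1 against 3.95 in CC1 and 2.82 in KC2. Of 28 unigenes of the qPCR list 13 were described, with 3 past 1 log2 unit in CC1 and KC2 and 2 in CC2 and KC1. ARR4 (c72839_g1), a response regulator of cytokinin signalling, was in the first direction, with 3.06 in CC1, 3.08 in KC2, 2.04 in CC2 and 2.0 in KC1. In the cold both KT libraries (4.02 and 3.87) lay above both CT libraries (3.06 and 3.78), the reverse of the named unigenes of this direction above.

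Ethylene genes went both ways, with more of them higher in CC2 and KC1. Of 9 described, 1 was higher in CC1 and KC2 and 2 in CC2 and KC1 past 1 log2 unit, beside 43 and 39 of all 268 named unigenes and 3.92% and 3.74% of all described. Without overlap at any size these counts were 1 and 4, beside 21.4% and 19.8% of all described. The median crossed difference of the list was -0.847. The 3 unigenes named as ACO3, oxidases of the last step of ethylene synthesis and their homologs, had different directions. The unigene c70755_g3 had 2.94 in CC1 and 3.09 in KC2 against 0.87 in CC2 and 1.60 in KC1. In c74817_g1 the values were 1.70 in CC2 and 2.09 in KC1 against 0.13 and 0.25, and in c78383_g9 they were 3.52 and 3.41 against 2.17 and 2.30. RAP2-4 (c79790_g1), an ethylene-responsive factor, had 2.60 and 2.50 against 1.60 and 1.55.

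Among 8 DREB unigenes described, 0 were higher in CC1 and KC2 past 1 log2 unit without overlap and 1 in CC2 and KC1. Over all described unigenes these shares were 3.92% and 3.74%. The DREB1D unigene past 1 log2 unit (c80221_g1) was listed at 0 in KC2 and had 0.96 in CC1, 1.36 in CC2 and 2.01 in KC1. Both unigenes of another component differed by more than 1 log2 unit between the pair means (-2.93 and -1.55), but their pairs overlapped. DREB1D (c79563_g1) had 4.83 in CC1, 4.17 in CC2 and 6.51 in KC1 and was listed at 0 in KC2. DREB1B (c79563_g2) had 2.05, 1.43 and 3.72 in these libraries and was also listed at 0 in KC2. A DREB3 unigene, c71296_g1, lay within 1 log2 unit, with 3.33 in CC1, 3.27 in KC2, 3.66 in CC2 and 4.08 in KC1. Without overlap at any size, 2 of the 8 were higher in each direction. Over all described unigenes these shares were 21.4% in CC1 and KC2 and 19.8% in CC2 and KC1. Those higher in CC1 and KC2 were DREB3 unigenes. The first, c59493_g1, had 1.31 in CC1 and 2.02 in KC2 against 1.07 in CC2 and 1.25 in KC1. The second, c64231_g2, had 2.56 and 2.50 against 2.16 and 2.02.

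The remaining lists were short, and their counts past 1 log2 unit without overlap stand beside 43 of 268 named unigenes (3.92% of all described) in CC1 and KC2 and 39 (3.74%) in CC2 and KC1. Of 8 disease resistance unigenes 3 were higher in CC2 and KC1 and 0 in the other direction. By label 3 of the 8 were higher in CC and 0 in KC, beside 1.08% and 1.84% over all unigenes. Their names were selected on a cold response that holds the CC and KC values, so this count is not independent of the selection. Of 6 transposon proteins 1 was higher in CC2 and KC1 and 0 in the other direction. Of 10 ubiquitin and F-box unigenes 1 was higher in CC2 and KC1 and 2 in CC1 and KC2. The second of these, the ligase RING1 (c80128_g1), had 3.88 in CC1 and 4.00 in KC2 against 2.21 and 2.75. Of 5 receptor kinases 0 were past 1 log2 unit in either direction. Of 4 calcium proteins 1, the Ole e 8 homolog, was higher in CC2 and KC1. Of 10 chloroplast proteins 2 lay on each side, and HEME1 (c74027_g1), an enzyme of heme and chlorophyll synthesis, had 4.80 in CC1 and 5.03 in KC2 against 2.53 and 2.84. The allene oxide synthase CYP74A (c78485_g1), which opens jasmonate synthesis, had 2.92 and 3.03 against 0.71 and 2.20. Of 11 unigenes listed by the word mitochondrial in their names, 3 lay on each side. They included AtMg00810-like unigenes, c14276_g1 and c86509_g5 in CC1 and KC2 and c50710_g2 in CC2 and KC1. DAP3 (c80454_g4), a ribosomal protein, had 3.92 in CC2 and 4.39 in KC1 against 1.91 and 1.95. Of 15 defence proteins and peroxidases 2 were higher in CC2 and KC1, namely a type-2 proteinase inhibitor (c66612_g1), with 2.62 and 1.72 against 0 in both other libraries, and snakin-2 (SN2, c63046_g1), with 10.66 and 9.70 against 8.52 and 9.02.

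By label the defence proteins and peroxidases leaned to KC. Of the 15 described, 7 were higher in KC by more than 1 log2 unit without overlap and 0 in CC, beside 1.84% and 1.08% over all unigenes, and the median of CC minus KC was -1.174. These unigenes had names because their cold response differed between the cultivars by label, a quantity that holds the CC and KC values, so the count is not independent of the selection. None passed the test. The cationic peroxidase PNC1 (c82714_g3) had 2.22 in KC2 and 2.75 in KC1, against 0.75 in CC1 and 0.96 in CC2, a difference of -1.63 (standard error 0.261, adjusted p = 1.0 with limma). Peroxidase 12 (PER12, c59904_g1) had 2.45 in KC1 and 2.26 in KC2, against 0.56 in CC1 and 1.34 in CC2. Both are enzymes that act on the cell wall or on peroxide in defence.

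Also higher in KC were a WAT1-related transporter (At3g18200, c116238_g1), with 1.77 in KC1 and 2.37 in KC2 against 0.47 in CC1 and 0.00 in CC2, and a UPF0098 protein (c68587_g1), with 2.15 and 1.92 against 0.51 and 0.00. The ribosomal protein L18a-3 (c49589_g2) had 2.54 and 2.32 against 0.97 and 1.12. In CC the named unigenes with the largest gaps included a pair of disease resistance proteins. A homolog of the TMV resistance protein N (c50928_g1), a receptor that acts against tobacco mosaic virus, had 1.46 in CC1 and 2.48 in CC2 and was listed at 0 in KC1 and KC2. At4g11170 (c86723_g3) had 3.03 and 3.48 against 1.60 in KC1 and 1.74 in KC2. A Ty3 transposon polyprotein (c31127_g1) had 2.43 and 1.49 against 0.00 and 0.03. A pentatricopeptide repeat protein (c100966_g1) had 1.09 and 1.89 and a U5 helicase (c58057_g2) had 1.10 and 1.36, both listed at 0 in KC1 and KC2. These differences were smaller than those between the crossed pairs, with no named unigene past 2 log2 units, and each had an adjusted p-value of 1.0 with limma.

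A single library lay more than 1 log2 unit outside the other 3, which agreed within 1 unit, in fewer unigenes. KC1 was above the others in 106 unigenes and below them in 211. CC2 was above in 14 and below in 224, CC1 above in 30 and below in 112, and KC2 above in 38 and below in 156. Each library was thus low more often than high, and between 45 (KC2) and 109 (KC1) of the low values were listed at 0. In KC1 the Golgi and endosome protein Tm9sf3 (c63956_g5) was listed at 0 against 2.81 in CC1, 3.19 in CC2 and 2.74 in KC2, and the acetyl-CoA carboxylase ACC1 (c64256_g1) had 0.75 against 2.91, 3.05 and 2.67. In CC2 the endochitinase CHN14 (c61334_g1) had 0.82 against 2.56 in CC1, 3.02 in KC1 and 2.90 in KC2, and DSP-22 (c95449_g1), a desiccation protein of the chloroplast, had 0.01 against 2.39, 2.66 and 2.25. In CC1 a lipid-transfer protein (c62013_g1) was listed at 0 against 3.36 in CC2, 2.75 in KC1 and 3.37 in KC2. In KC2 a homolog of the TMV resistance protein N (c59548_g1) was listed at 0 against 3.12, 2.62 and 2.57 in CC1, CC2 and KC1. In the same library the chaperone HSC-2 (c57339_g1) was listed at 0 against 2.33, 2.60 and 2.23, and miraculin (c26891_g1) had 4.84 against 2.47, 2.16 and 2.11.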

How the data were processed

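Leaf mRNA of 8 samples was sequenced in paired reads. The authors assembled the reads into unigenes with Trinity, mapped them with bowtie and estimated abundances with RSEM; versions and the scaling of the value are not given in the sources used here. The deposited table holds log2(value + 1) to 3 decimals with no read counts, so the reads behind each value are unknown; the read totals per library that the paper gives were not used here.

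Groups were taken from the sample labels. Members, lists and named unigenes were chosen with earlier results of these data known. Values were taken back to the linear scale (2 to the power of the log2 value, less 1) only for the filter (at least 1 in at least 2 libraries) and for sums. CC against KC was tested on the 4 control libraries and CT against KT in one fit of all 8, both with limma 3.58.1 (R 4.3.3; variance moderated along the mean, Benjamini-Hochberg adjustment, adjusted p under 0.05 and log2 difference over 1), checked on simulated tables. The crossed pairs got no test. Other steps used Python 3 with pandas and numpy. Alternatives were another pseudocount, filter and scaling, an unmoderated test, blocks, and leaving out each library.

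Named unigenes were, per direction of the crossed pairs, the 10 with the largest gap among those with a name and the 3 with the largest gap of all, 5 per direction by label, 3 per library that stood apart (of which the more distant are printed), and up to 4 per list. Names were the closest UniProt matches given with the study for 413 unigenes. Lists were set by words in these names, apart from the 30 transcription factors and 28 qPCR unigenes that the study listed.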

Additional observations from a re-analysis of the deposited data

How the results depend on the processing

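The counts by label depended most on single libraries. Leaving out each library in turn gave 477 to 730 unigenes higher in CC (262 with all) and 720 to 1348 higher in KC (446). For the crossed pairs it gave 1124 to 1399 higher in CC1 and KC2 and 919 to 1640 higher in CC2 and KC1. Sets of 2 against 1 overlap less by construction. On-off unigenes numbered 363 to 618 in CC1 and KC2 and 346 to 503 in CC2 and KC1, with 618 without CC2 and 554 without KC1, and reciprocal partners 16 to 20 (12 with all). With a pseudocount of 0.1, 1456 unigenes were higher in CC1 and KC2, 513 in CC and 819 in KC. Of on-off unigenes in CC1 and KC2, 238 had a mean value of at least 1 and 214 were found with quantile normalization, where 219 were on in CC2 and KC1 and 7 had partners. With on set at a value of at least 4 there were 84, 96 and 0. The counts of members whose cold libraries lay on the side of the pairs, 353 and 410, ranged from 306 to 504 and from 377 to 572 and stayed within 1.5 times under each alternative run.

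The test by label called 0 unigenes under each alternative run except the unmoderated test, which called 1. CT against KT called 129 unigenes, but 0 without a filter, 295 with median-ratio scaling, 225 with quantile normalization, 217 unmoderated, 84 with the cold libraries only and 820 with all controls as one group. Leaving out each cold library in turn gave 0 to 719. With the replicate block 0 unigenes were called in either test. Deviations of libraries of the same number correlated at -0.425 in the control groups and at 0.0157 in the cold groups. With the crossed pairing as the block, the test by label called 0 unigenes (1373 with an unadjusted p-value under 0.05). At any size, 2237 unigenes lay higher in CC and 5187 in KC without overlap (30.1% in CC), but 3655 and 3417 (51.7%) with median-ratio scaling. Of 306 values of single named unigenes under the alternatives, 0 changed sign and 112 moved by at least the spread within the pairs, 45 of them with the other pseudocount. The cause of these changes was not tested.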
